A study of Homo sapiens with 18 samples.

Results

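Neuroblastoma cells occur in an adrenergic, neuron-like state and in a mesenchymal, migratory state, and the 10 genes described here are named for the mesenchymal one. They are the transcription factors PRRX1, SNAI2 and TWIST1, the Hippo pathway coactivators WWTR1 (TAZ) and YAP1, the AP-1 subunits FOSL1 and FOSL2, the factor RUNX1, the intermediate filament gene VIM and the hyaluronan receptor CD44. Members were taken by symbol, and all 10 were found among the 57905 Ensembl genes counted. RNA was sequenced from BE(2)-m17, a human neuroblastoma cell line, in 3 experiments named RNA1, RNA2 and RNA3. In each, 3 libraries of ABCC1-overexpressing cells (labelled ABCC1(WT)) were compared with 3 of empty vector control cells (labelled Puro), 18 libraries in all.

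All cells, controls included, carried an APP transgene in the hygromycin-selected Sleeping Beauty transposon pSBbi-Hyg-APP. The lines differed in a further, puromycin-selected transposon, which was empty (pSBbi-Pur) in Puro cells and held codon-optimized ABCC1, the gene of an efflux transporter, in ABCC1(WT) cells. Cells were plated at 14000000 and lysed on day 4. Each line was a stably selected transfectant whose insertions were not mapped in the sources used here, so an effect of insertion site or of selection within a line cannot be told apart from that of ABCC1 within an experiment. The study lists repeats with cryopreserved and then with newly transfected cells, and RNA2 and RNA3 were matched to these by that order. The labels only number the experiments. By the study's methods RNA1 also differed from RNA2 and RNA3 in library kit and instrument, although the labels of RNA1 name both kits, so levels were compared within an experiment. The study's methods describe weekly platings of each line, with 3 weeks of samples assayed together, so the libraries of a group were taken as separate platings of the same transfected line. The labels tie no library to a week, and the p-values measure the spread between platings, not between independent transfections.

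Assigned read pairs ranged from 8866994 to 57937653 per library, with the fewest in RNA3. The exogenous ABCC1 sequence had 0 to 15 counts in Puro and 51035 to 594404 in ABCC1(WT) libraries, which matched every label. The 10 adrenergic neuroblastoma markers were all detected in every group and summed to between 2379 and 4594 CPM per kb of exon (CPM is a count scaled to a library of 1e+06 reads, with TMM factors set over all genes and vector sequences of an experiment). In RNA2 the sums were higher in ABCC1(WT) (3180 to 3705) than in Puro libraries (2379 to 3004) without overlap, while they overlapped in RNA1 and RNA3. Silent genes were not equally silent: 350 olfactory receptor genes, taken as unexpressed, averaged 0.00506 (Puro) and 0.00414 (ABCC1(WT)) CPM per kb in RNA1, 0.567 and 0.306 in RNA2, and 1.56 and 1.25 in RNA3. In all 3 experiments the libraries of ABCC1(WT) lay below those of Puro without overlap, so this background moved with the comparison.

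The mesenchymal state is set by a network of transcription factors. PRRX1 is a homeodomain factor that can push neuroblastoma cells toward it, SNAI2 (Slug) and TWIST1 bind E-box sequences and drive epithelial to mesenchymal transition, and YAP1 and WWTR1 act through TEAD factors when the Hippo kinases are inactive. FOSL1 and FOSL2 pair with JUN proteins to form AP-1, RUNX1 binds DNA with CBFB, and VIM and CD44 are widely used markers of mesenchymal cells.

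Promoter windows are shown for members that differed between the lines in RNA1, to look for letters that members moving together have in common. RefSeq windows (build GRCh38.p14, 250 bases before to 50 after a start) matched 7 of the 10 members. TWIST1, SNAI2 and FOSL1 had no entry. The windows are written 5′ to 3′ on the gene's strand, with matches in capitals to CANNTG (the E-box of SNAI2 and TWIST1), TGANTCA (AP-1), GGAATG (TEAD) or TGTGGT (RUNX), each searched on both strands. No 2 matches overlapped in these windows.
WWTR1 distal start (chr3:149703224-149703523, minus strand): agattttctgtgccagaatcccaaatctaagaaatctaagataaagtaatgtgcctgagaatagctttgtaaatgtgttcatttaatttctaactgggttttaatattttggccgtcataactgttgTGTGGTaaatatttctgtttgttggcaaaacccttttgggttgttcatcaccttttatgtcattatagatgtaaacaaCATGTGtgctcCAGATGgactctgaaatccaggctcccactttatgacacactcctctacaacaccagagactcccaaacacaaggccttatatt
WWTR1 proximal start (chr3:149657976-149658275, minus strand): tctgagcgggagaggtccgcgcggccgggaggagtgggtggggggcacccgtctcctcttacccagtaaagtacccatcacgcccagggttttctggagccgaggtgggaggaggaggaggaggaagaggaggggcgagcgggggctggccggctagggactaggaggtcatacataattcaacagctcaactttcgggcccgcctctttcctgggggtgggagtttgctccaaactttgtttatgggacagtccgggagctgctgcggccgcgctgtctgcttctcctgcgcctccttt
CD44 (chr11:35138921-35139220, plus strand): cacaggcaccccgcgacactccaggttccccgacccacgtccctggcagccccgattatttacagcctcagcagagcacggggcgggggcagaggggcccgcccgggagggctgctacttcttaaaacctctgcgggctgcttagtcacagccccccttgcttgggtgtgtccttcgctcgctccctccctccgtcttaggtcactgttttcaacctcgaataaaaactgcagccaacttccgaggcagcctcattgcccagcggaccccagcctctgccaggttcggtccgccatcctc
PRRX1 (chr1:170663881-170664180, plus strand): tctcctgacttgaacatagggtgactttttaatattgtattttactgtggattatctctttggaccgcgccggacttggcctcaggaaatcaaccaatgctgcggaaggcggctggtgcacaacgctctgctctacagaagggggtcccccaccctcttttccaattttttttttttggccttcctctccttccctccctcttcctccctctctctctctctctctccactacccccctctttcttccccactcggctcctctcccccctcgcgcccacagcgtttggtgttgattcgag
FOSL2 (chr2:28392608-28392907, plus strand): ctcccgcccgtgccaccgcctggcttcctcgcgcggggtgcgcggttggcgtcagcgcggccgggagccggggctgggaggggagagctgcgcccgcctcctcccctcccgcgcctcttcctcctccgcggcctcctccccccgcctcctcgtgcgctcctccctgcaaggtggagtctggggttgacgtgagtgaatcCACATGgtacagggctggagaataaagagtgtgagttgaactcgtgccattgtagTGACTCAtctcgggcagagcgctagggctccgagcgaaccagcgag
WWTR1 and CD44 were higher and PRRX1 and FOSL2 lower with ABCC1 in RNA1. The FOSL2 window held 1 E-box and 1 AP-1 match, the distal WWTR1 window 2 E-boxes and 1 RUNX match, and those of CD44, PRRX1 and the proximal WWTR1 start held none. Of 35116 windows of the same length, 68.7% held the E-box letters, 7.71% the AP-1, 14% the TEAD and 13.1% the RUNX letters. No motif was found in all 4 members. A match is a string of letters and no evidence of a site, and its absence concerns this window only.

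Levels of the members spanned more than 3 orders of magnitude in RNA1. In units of CPM per kb, TWIST1 was the most abundant in every group, with group means from 55.4 to 81.6, followed by VIM at 21.8 to 40.4 and FOSL2 at 5.14 to 10.1. The ranges of these 3 genes did not overlap each other or the next gene in any of the 6 groups. PRRX1 (2.24 to 7.29), SNAI2 (1.74 to 5.11) and CD44 (1.43 to 2.7) came next, except that FOSL1 (3.02 and 2.49 in ABCC1(WT) and Puro cells of RNA3) stood between SNAI2 and CD44 there with overlapping ranges. In RNA1 the order was PRRX1, SNAI2, CD44 without overlap, whereas the ranges of PRRX1 and SNAI2 overlapped in RNA2 and in the ABCC1(WT) cells of RNA3. WWTR1, FOSL1, RUNX1 and YAP1 were scarce in RNA1, with YAP1 at 0.0254 and 0.0452 CPM per kb in the Puro and ABCC1(WT) cells of RNA1, the range of RUNX1 overlapping that of YAP1 in both.

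**Figure D1:**
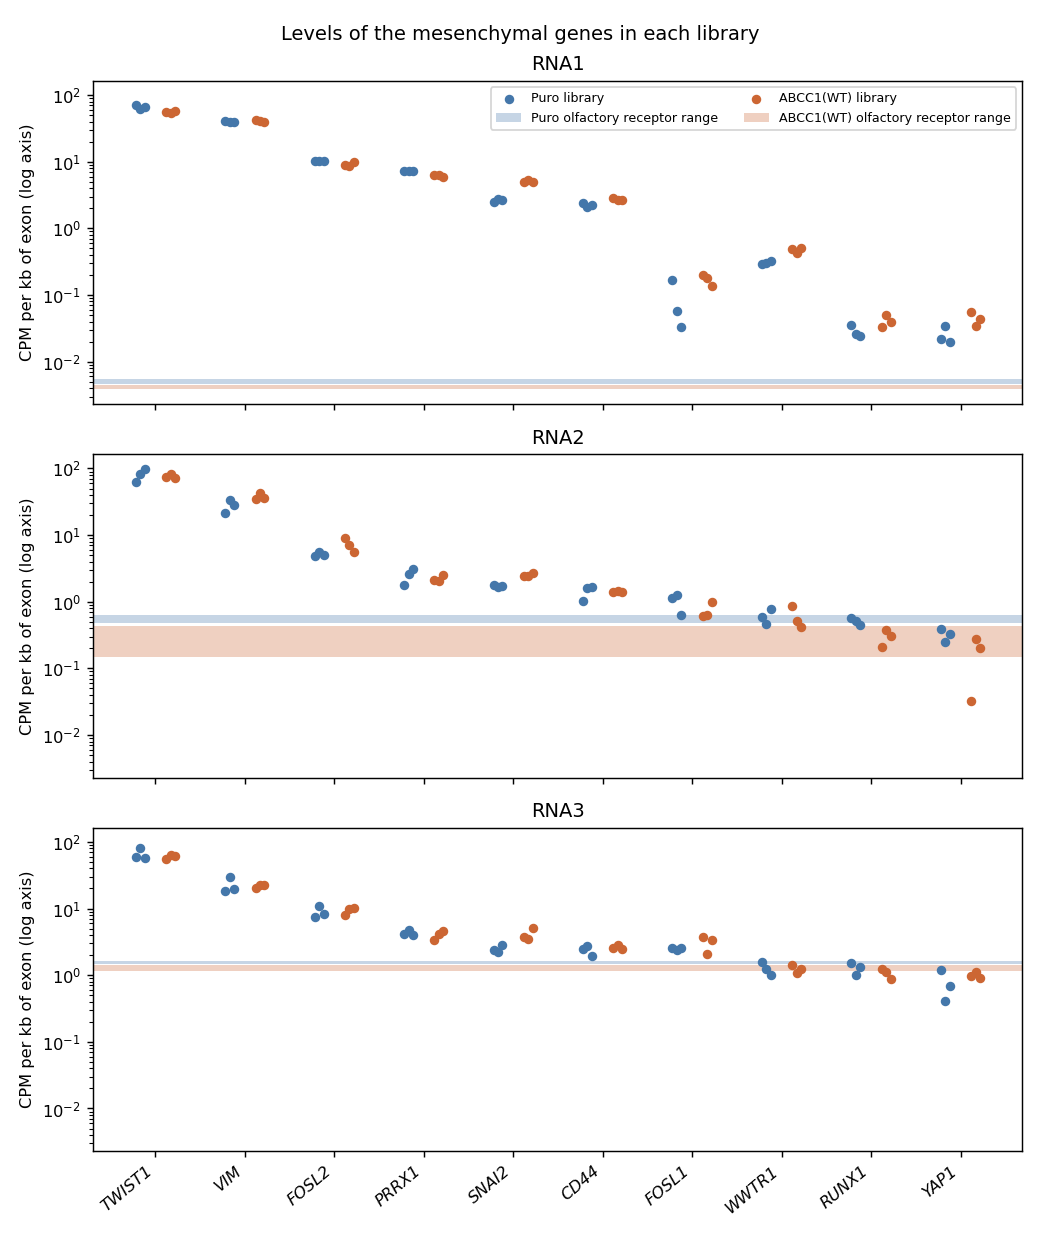
CPM per kb of exon on a log axis for each member (x axis, ordered by mean level) in each library of RNA1, RNA2 and RNA3, with bands for the range of the mean level of 350 olfactory receptor genes in each line. TWIST1, VIM and FOSL2 lie above the bands in every panel, while the libraries of YAP1 and RUNX1 lie within or below the band of their line in RNA2 and RNA3.

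Against the olfactory receptor level, the members ranged from far above it to below it. In RNA1 the lowest members stood at 5.03 times that level in Puro (YAP1) and 9.85 times in ABCC1(WT) cells (RUNX1). In RNA2 and RNA3, YAP1 (0.486 to 0.797 times) and RUNX1 (0.821 to 0.966 times) were below it in every group, and WWTR1 was at 1.08 and 1.98 times in RNA2 and 0.815 and 0.985 times in RNA3 (Puro and ABCC1(WT)). SNAI2 stood at 3.07 and 8.27 times the level in RNA2 and at 1.61 and 3.30 times in RNA3. CD44 (2.54 and 4.67 times in RNA2, 1.53 and 2.08 times in RNA3) and FOSL1 (1.79 and 2.46 times in RNA2, 1.59 and 2.41 times in RNA3) were also close to it. PRRX1 stood at 4.42 and 7.32 times in RNA2 and 2.73 and 3.21 times in RNA3. For these 7 genes, the part of this background in the values of RNA2 and RNA3 was not tested.

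In the comparison of ABCC1(WT) with Puro cells, RNA1 showed opposite movements among the mesenchymal genes. SNAI2, WWTR1 and CD44 were higher and PRRX1, TWIST1 and FOSL2 were lower, 6 of the 9 members tested at an adjusted p of at most 0.05, while VIM, RUNX1 and FOSL1 did not pass and YAP1 had too few counts to be tested. In RNA1, 37.6% of the 16995 genes tested were called, 17.9% as higher and 19.7% as lower, and for 51.2% the groups did not overlap. The median log2FC of the 9 members was 0.24, beside 0.01 over all genes tested. The lines did not overlap for 7 of the 10 members, the 6 called and YAP1. None of the 10 members was called in RNA2 or RNA3, with unadjusted p-values below 0.05 for 3 members in RNA2 and 1 in RNA3, beside 21.2% and 15.2% of all genes tested. There, 1.7% of 34091 genes (1.25% higher and 0.458% lower) and 2.8% of 36509 genes (2.03% higher and 0.767% lower) were called. DESeq2 called 0 members in both as well.

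**Figure D2:**
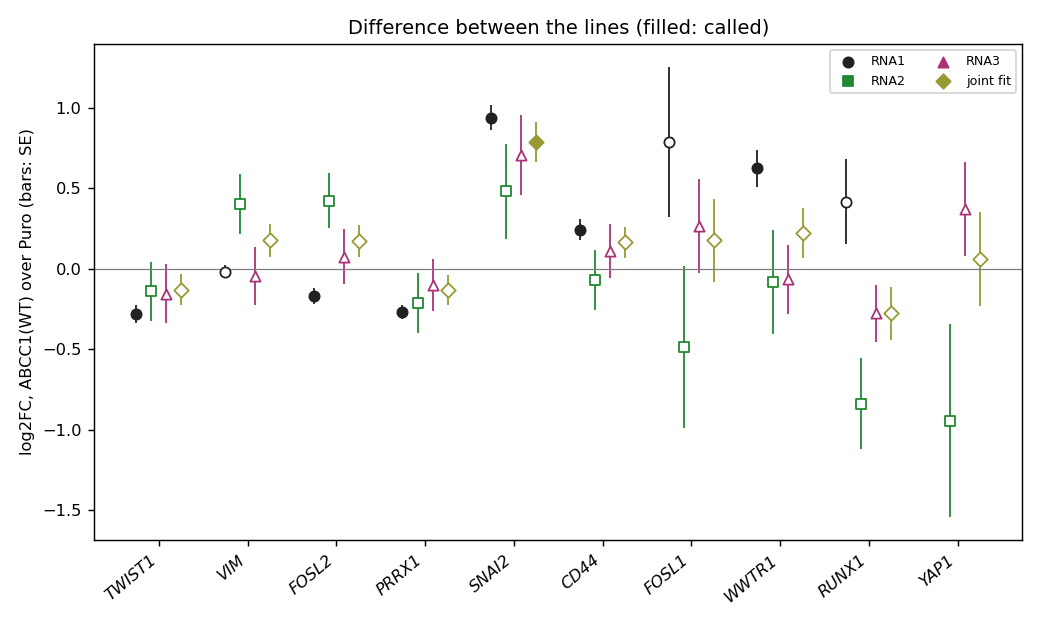
log2FC of ABCC1(WT) over Puro for each member (x axis) in RNA1, RNA2, RNA3 and the joint fit, with bars for the standard error and filled symbols for members called at an adjusted p of at most 0.05. SNAI2 lies above 0 in all 4 comparisons and is the only member called in the joint fit, at 0.79.

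SNAI2 (ENSG00000019549, GRCh37 chr8:49830249-49834299) was the 1 member whose lines did not overlap in any of the 3 experiments. In RNA1 it had 5.69, 6.25 and 5.99 CPM in Puro and 11.3, 12.3 and 11.4 CPM in ABCC1(WT) libraries, a log2FC of 0.94 (SE 0.08, adjusted p = 8.25e-06). In RNA2 it had 4.11, 3.82 and 3.99 CPM in Puro and 5.63, 5.59 and 6.08 CPM in ABCC1(WT) libraries, with a log2FC of 0.48 (SE 0.30, adjusted p = 0.346). All 3 ABCC1(WT) libraries thus lay above all 3 Puro libraries, but the fit did not call the difference. In RNA3 the values were 5.46, 5.15 and 6.57 CPM in Puro and 8.63, 8.08 and 11.6 CPM in ABCC1(WT) libraries, a log2FC of 0.71 (SE 0.25, adjusted p = 0.107), again with no overlap. Leaving out ABCC1(WT) replicate 1 of RNA3 brought the adjusted p there to 0.0467, with a log2FC of 0.81. The groups did not overlap for 30.4% of genes tested in RNA2 and 19.3% in RNA3, so this pattern on its own is common. An exact two-sided permutation test of 3 against 3 libraries cannot give a p below 0.1, which SNAI2 reached in each experiment.

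PRRX1 (ENSG00000116132, chr1:170631869-170708560), the homeodomain regulator, moved the other way in RNA1. It had 60.8, 59.7 and 59.9 CPM in Puro and 52.0, 51.6 and 48.9 CPM in ABCC1(WT) libraries, a log2FC of -0.27 (SE 0.05, adjusted p = 1.03e-03). The lines did not overlap there. In RNA2 its 14.8 to 25.2 CPM in Puro enclosed the 16.9 to 20.8 CPM in ABCC1(WT) cells (log2FC -0.21, adjusted p = 0.512), and in RNA3 the ranges of 32.5 to 38.7 and 27.4 to 37.9 CPM overlapped (log2FC -0.10, adjusted p = 0.827).

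TWIST1 (ENSG00000122691, chr7:19060614-19157295), the basic helix-loop-helix factor, was also lower in RNA1. Its values were 145, 125 and 133 CPM in Puro and 113, 109 and 116 CPM in ABCC1(WT) libraries, a log2FC of -0.28 (SE 0.05, adjusted p = 2.24e-03), without overlap. In RNA2 (129 to 199 against 148 to 167 CPM) and RNA3 (115 to 167 against 111 to 129 CPM) the ranges overlapped, with log2FC of -0.14 (adjusted p = 0.674) and -0.15 (adjusted p = 0.748). Counting ignored strand, and an unnamed gene on the opposite strand, ENSG00000232821, shares 6.94% of the TWIST1 exons and had 224 to 401 counts in RNA1, beside 3429 to 6670 for TWIST1. SNAI2 and TWIST1, both E-box factors of the same transition, therefore changed in opposite directions in RNA1.

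**Figure D3:**
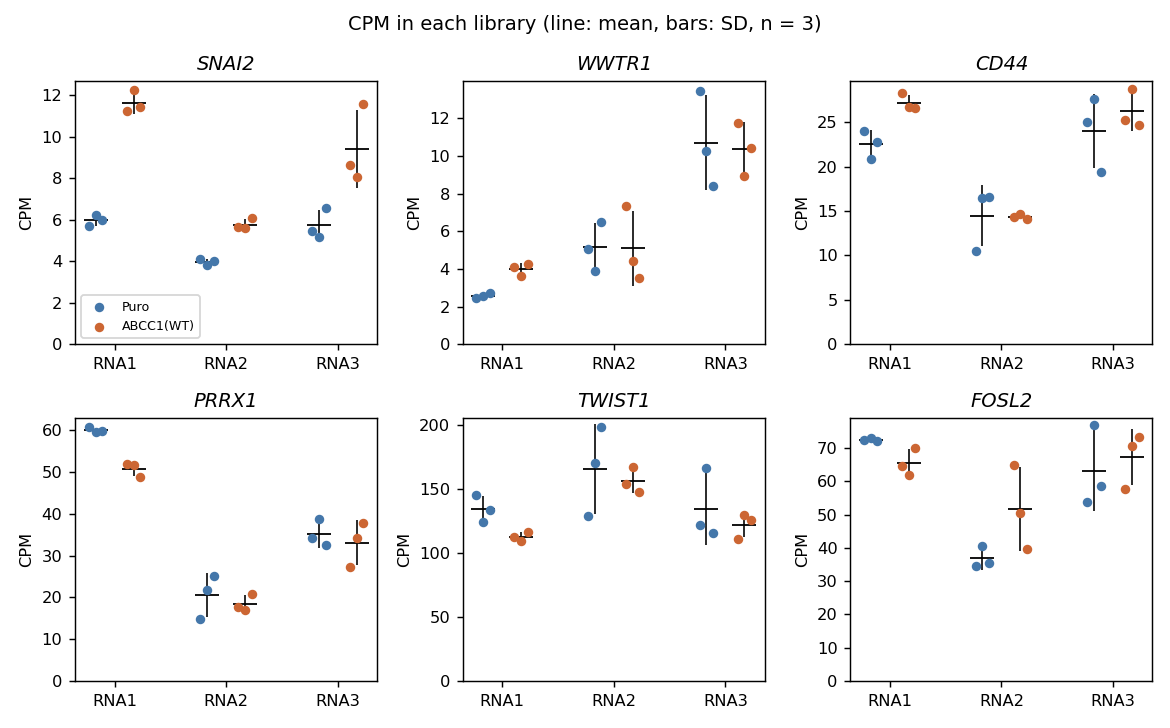
CPM (from 0) of the 6 members called in RNA1, in each library of RNA1, RNA2 and RNA3, with lines for the mean and bars for the SD of 3 libraries. For SNAI2 the 3 ABCC1(WT) libraries lie above the 3 Puro libraries in each experiment, while the other 5 genes separate the lines in RNA1 only.

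WWTR1 (ENSG00000018408, chr3:149235022-149454501), which encodes TAZ, was higher in RNA1. It had 2.45, 2.54 and 2.73 CPM in Puro and 4.10, 3.61 and 4.25 CPM in ABCC1(WT) libraries, a log2FC of 0.62 (SE 0.11, adjusted p = 1.42e-03) on 70 to 244 counts. The groups did not overlap. Its log2FC was -0.08 and -0.06 (adjusted p = 0.904 and 0.924) in RNA2 and RNA3, with overlapping ranges near the olfactory receptor level. The antisense gene WWTR1-AS1 shares 9.45% of the WWTR1 exons, and reads of the 2 cannot be told apart there.

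YAP1 (ENSG00000137693, chr11:101981192-102104154), the paralog of WWTR1, had 6, 6 and 4 counts in the Puro and 20, 7 and 16 counts in the ABCC1(WT) libraries of RNA1, below the filter on low counts, and the highest Puro and lowest ABCC1(WT) libraries both stood at 0.218 CPM. Its log2FC was -0.94 (SE 0.60, adjusted p = 0.362) in RNA2 and 0.37 (SE 0.29, adjusted p = 0.592) in RNA3. The libraries overlapped in both, and those of ABCC1(WT) cells in RNA2 had 5, 38 and 40 counts.

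FOSL2 (ENSG00000075426, chr2:28615315-28640179) was the more abundant of the AP-1 members by far. In RNA1 it had 72.5, 73.1 and 72.1 CPM in Puro and 64.6, 61.9 and 70.1 CPM in ABCC1(WT) libraries, a log2FC of -0.17 (SE 0.05, adjusted p = 0.0217). The groups did not overlap, but the call was lost when any library other than ABCC1(WT) replicate 3 was left out (Puro replicates 1, 2 and 3 and ABCC1(WT) replicates 1 and 2), with a log2FC between -0.18 and -0.13 in these fits. In RNA2 its log2FC had the opposite sign, 0.42 (SE 0.17, adjusted p = 0.159), with 34.4 to 40.6 CPM in Puro and 39.6 to 64.8 CPM in ABCC1(WT) libraries, and in RNA3 it was 0.08 (adjusted p = 0.879). The difference between the experiments did not pass its own test (adjusted p = 0.675).

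FOSL1 (ENSG00000175592, chr11:65659520-65668044) was scarce, at 14, 3 and 2 counts in the Puro and 21, 11 and 15 counts in the ABCC1(WT) libraries of RNA1. Its log2FC was 0.79 (SE 0.47, adjusted p = 0.211). Without Puro replicate 1, the highest of the controls, it was 1.87 (adjusted p = 0.0256). In RNA2 and RNA3 the log2FC was -0.49 and 0.27 (adjusted p = 0.590 and 0.723), with overlapping groups.

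RUNX1 (ENSG00000159216, chr21:36160098-37376965), whose exons sum to 15574 bp, had 11 to 35 counts per library in RNA1 and a log2FC of 0.42 (SE 0.26, adjusted p = 0.240). In RNA2 the 6.94 to 8.94 CPM of Puro lay above the 3.22 to 5.82 CPM of ABCC1(WT) libraries, with a log2FC of -0.84 (SE 0.28, adjusted p = 0.105), and in RNA3 it was -0.27 (adjusted p = 0.491). Its level in RNA2 was 0.898 and 0.966 times that of the olfactory receptor genes in Puro and ABCC1(WT) cells. Of all members RUNX1 had the smallest p for a difference between experiments, which did not pass (adjusted p = 0.162).

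VIM (ENSG00000026025, chr10:17270258-17279592) was abundant in both lines of RNA1, where the ranges overlapped, with 205, 197 and 196 CPM in Puro and 207, 201 and 193 CPM in ABCC1(WT) libraries (log2FC -0.02, SE 0.04, adjusted p = 0.785). The mean CPM was slightly higher in ABCC1(WT) cells (200.4 against 199.2) while the log2FC was below 0, since the fit set its TMM factors after the filter on low counts and the CPM before it. In RNA2 the 3 Puro libraries (107, 165 and 138 CPM) lay below the ABCC1(WT) libraries (176, 210 and 177 CPM), with a log2FC of 0.40 (SE 0.19, adjusted p = 0.217). In RNA3 the ranges overlapped, the log2FC was -0.05 (adjusted p = 0.937), and Puro replicate 2 was highest at 146 CPM. Genes on the opposite strand, VIM-AS1 among them, share 25.4% of the VIM exons.

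CD44 (ENSG00000026508, chr11:35160417-35253949) was slightly higher in RNA1, with 24.0, 20.9 and 22.7 CPM in Puro and 28.2, 26.8 and 26.6 CPM in ABCC1(WT) libraries, a log2FC of 0.24 (SE 0.06, adjusted p = 0.0113). The groups did not overlap. Without Puro replicate 2, the lowest library, the log2FC was 0.19 and the call was lost (adjusted p = 0.0609). In RNA2 and RNA3 the log2FC was -0.07 and 0.11 (adjusted p = 0.851 and 0.810), and the ranges overlapped.

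When the log2 of the olfactory receptor level was entered as a covariate in RNA1, SNAI2 was the only member still called (log2FC 0.94 without and 0.89 with the covariate), and the calls of the other 5 were lost while their log2FC moved little. With the covariate the log2FC was -0.26 for PRRX1 (adjusted p = 0.122), 0.68 for WWTR1 (adjusted p = 0.0840), -0.34 for TWIST1 (adjusted p = 0.0903), -0.13 for FOSL2 (adjusted p = 0.481) and 0.21 for CD44 (adjusted p = 0.349), beside -0.27, 0.62, -0.28, -0.17 and 0.24 without it. Since the lines did not overlap in this level, the covariate and the line cannot be told apart in this fit. In RNA1 the olfactory receptor level was 0.0075 to 1.65% of the level of these 5 members.

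The joint fit asked which differences were common to the 3 experiments. SNAI2 was the 1 member called, with a log2FC of 0.79 (SE 0.12, adjusted p = 7.11e-06), beside 12.4% of the 46225 genes tested, 8.72% higher and 3.72% lower. The other 9 members lay between -0.28 (RUNX1) and 0.22 (WWTR1). With RLE size factors in place of TMM, 2822 genes were higher and 2812 lower in the joint fit, beside 4033 and 1718 with TMM. In RNA3 there were 966 higher and 199 lower with RLE, beside 741 and 280 with TMM. The main fit of RNA2 had 425 higher and 156 lower. With at least 10 counts in every library it had 350 and 438, and without ABCC1(WT) replicate 3 593 and 766. The balance of directions over all genes thus depended on the settings in RNA2 and the joint fit, whereas SNAI2 was called in all 24 alternative joint fits with a log2FC of 0.61 to 0.89. The calls of other members in the joint fit depended on the settings. PRRX1 and TWIST1 were called as lower by DESeq2 (-0.22 and -0.22) and when at least 10 counts were required in every library (-0.31 and -0.30), RUNX1 in the latter only (-0.49), VIM as higher only without Puro replicate 2 of RNA3 (0.27), and YAP1 as higher with the olfactory receptor covariate (1.09). No member differed between the experiments at an adjusted p of at most 0.05, beside 1.19% of genes tested. For SNAI2 that adjusted p was 0.758.

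Genes of the surrounding pathways were read from the same fits, in lists chosen with earlier results of these data known. Of 27 further mesenchymal transcription factors and regulators, 23 were tested in RNA1, where 9 were higher and 5 lower with a median log2FC of 0.17. Of 27 in RNA2 and RNA3, 2 and 2 were higher and none lower (medians 0.16 and -0.09), and in the joint fit 9 were higher and 3 lower (median 0.03). The medians over all genes tested were -0.19 in RNA2, -0.09 in RNA3 and -0.16 in the joint fit. Over all genes tested, 17.9% were higher and 19.7% lower in RNA1, and 8.72% and 3.72% in the joint fit. In RNA2 1.25% were higher and 0.458% lower, and in RNA3 2.03% and 0.767%. The counts of all lists that follow stand beside the same shares. IFI16, an interferon-inducible DNA sensor, was higher in each experiment, with log2FC of 0.70 (SE 0.05), 0.76 (SE 0.17) and 0.61 (SE 0.16) and adjusted p of 2.80e-06, 0.0254 and 0.0193. Its call was lost without Puro replicate 1 or 3 or ABCC1(WT) replicate 2 in RNA2 and without Puro replicate 1 or ABCC1(WT) replicate 2 or 3 in RNA3, while its direction held. The covariate also ended it in RNA2 (0.69, adjusted p = 0.551) and RNA3 (0.39, adjusted p = 0.690), but not in RNA1 or the joint fit. MAFF, a small basic leucine zipper factor, had 16.6 to 18.3 CPM in Puro and 33.8 to 34.9 CPM in ABCC1(WT) cells of RNA1 and a log2FC of 0.84 (SE 0.09, adjusted p = 7.19e-09) in the joint fit. It was not called in RNA2 (0.58, adjusted p = 0.0953). In RNA3 it was higher (0.78, adjusted p = 1.64e-03), and 11 of the 12 alternative fits kept that call (highest adjusted p 0.256).

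**Figure D4:**
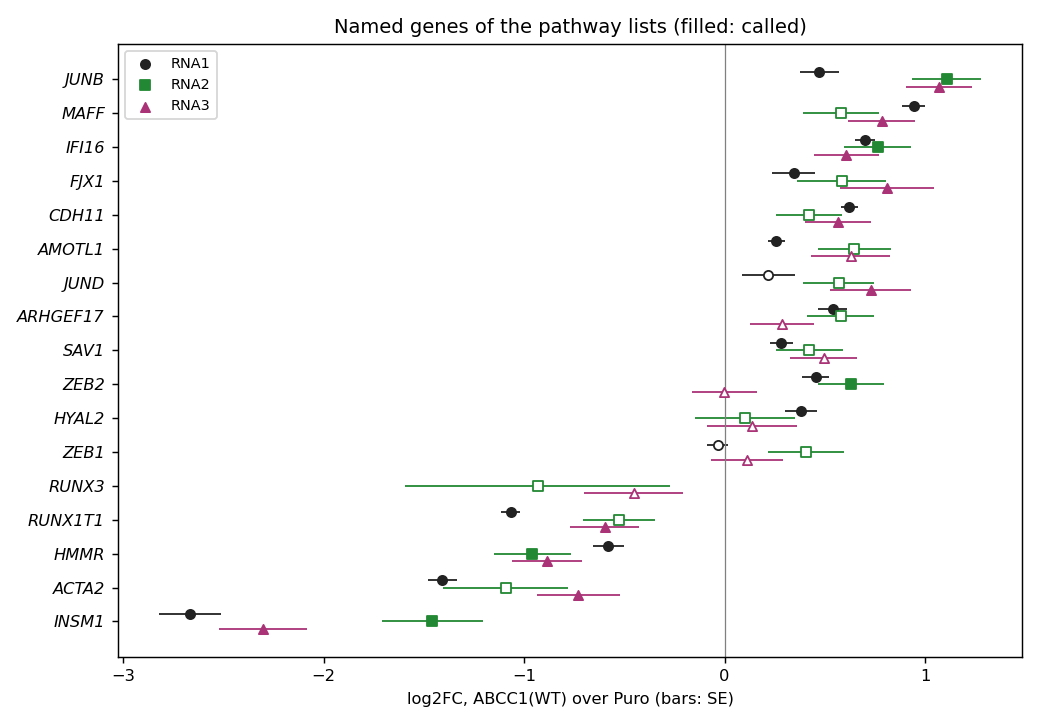
log2FC of ABCC1(WT) over Puro (x axis) for genes named from the pathway lists in RNA1, RNA2 and RNA3, with bars for the standard error and filled symbols for genes called. INSM1 and HMMR lie below 0 and JUNB and IFI16 above 0 with filled symbols in all 3 experiments.

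Among 5 other factors of epithelial to mesenchymal transition, 3 were tested in RNA1, with 1 higher and 1 lower (median -0.03). ZEB2, a zinc finger repressor, was higher in RNA1 at 34.9 to 37.8 CPM in Puro and 46.0 to 53.9 CPM in ABCC1(WT) libraries (log2FC 0.45, SE 0.07, adjusted p = 4.27e-04) and in the joint fit (0.43, adjusted p = 1.01e-03), but in RNA3 its 39.1 to 47.8 CPM in Puro lay within the 35.7 to 48.3 CPM of ABCC1(WT) cells. It was also called in RNA2 (log2FC 0.63, adjusted p = 0.0490), where the call was lost without any of Puro replicates 1, 2 and 3 and ABCC1(WT) replicates 1 and 2, and with at least 10 counts in every library (adjusted p = 0.0521). The covariate ended the call of ZEB2 in RNA1 (0.47, adjusted p = 0.0617), RNA2 (0.27, adjusted p = 0.913) and the joint fit (0.21, adjusted p = 0.357). Its paralog ZEB1 was near 0 in RNA1 (-0.03) and did not pass in the joint fit (0.22, adjusted p = 0.129) except without RNA3 Puro replicate 2 (0.29, adjusted p = 0.0262). Of these 5 factors, ZEB2 was the 1 called in RNA2 (median 0.41) and in the joint fit (median 0.22), and none was called in RNA3.

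Of 16 Hippo kinases, scaffolds and TEAD factors, which act on WWTR1 and YAP1, 7 were higher and 2 lower in RNA1 (median 0.06), none was called in RNA2 or RNA3 (medians 0.24 and 0.08), and 6 were higher in the joint fit with a median of 0.20. AMOTL1, an angiomotin that holds YAP1 in the cytoplasm, had a log2FC of 0.58 (SE 0.10, adjusted p = 4.38e-05) and SAV1, the scaffold of the kinases, 0.46 (SE 0.09, adjusted p = 1.06e-04) in that fit. Of 22 targets of YAP1 and WWTR1, 18 were tested in RNA1, where 7 were higher and 2 lower (median 0.05). In RNA2 1 (median -0.05), in RNA3 3 (median -0.09) and in the joint fit 6 (median 0.07) were higher, and 1 was lower in the joint fit. FJX1 (0.63, SE 0.12, adjusted p = 1.25e-04) and ARHGEF17 (0.54, SE 0.09, adjusted p = 1.46e-05) had the smallest p in the joint fit. In RNA1 the FJX1 log2FC of 0.34 was no longer called without Puro replicate 2 or 3 or with the covariate (0.22, adjusted p = 0.595), and its RNA3 call was lost without Puro replicate 1 or 3 or ABCC1(WT) replicate 2 and with the covariate (0.79, adjusted p = 0.540). The covariate also ended the RNA1 calls of AMOTL1 (0.32, adjusted p = 0.0595) and SAV1 (0.21, adjusted p = 0.310), but no joint call of these 4 genes.

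The 9 AP-1 partners of FOSL1 and FOSL2 included 8 tested in RNA1, 2 higher and 3 lower (median 0.12). In RNA2 1 (median 0.26), in RNA3 2 (median 0.10) and in the joint fit 4 (median 0.04) were higher and none lower. JUNB was higher in each experiment, rising from 86.2 ± 13.7 to 122 ± 8.29 CPM in RNA1, from 22.2 ± 3.84 to 49.7 ± 10.2 CPM in RNA2 and from 26.1 ± 5.85 to 55.3 ± 4.16 CPM in RNA3 (mean ± SD, n = 3). The log2FC was 0.47, 1.11 and 1.07 (SE 0.10, 0.17 and 0.17), with adjusted p of 4.48e-03, 3.05e-03 and 3.12e-06, and the RNA1 call was lost without ABCC1(WT) replicate 3 (0.41). With the olfactory receptor covariate the call was lost in RNA1, RNA2 and RNA3 (0.45, 0.96 and 0.72, adjusted p = 0.193, 0.208 and 0.217) and held in the joint fit (0.79). JUND had a log2FC of 0.57 (SE 0.11, adjusted p = 2.24e-04) in the joint fit. It was the other partner called in RNA3, where the call was lost without Puro replicate 1 or 3 or ABCC1(WT) replicate 2 or 3 and with the covariate (0.15, adjusted p = 0.929). Of the 3 relatives and partners of RUNX1, only RUNX1T1, a corepressor, was tested in RNA1 and was lower (log2FC -1.07, SE 0.05, adjusted p = 8.59e-08). It was also lower in the joint fit (-0.67, adjusted p = 1.56e-06) and in RNA3 (-0.60, adjusted p = 0.0314), where leaving out any library but Puro replicate 2 (Puro replicates 1 and 3, ABCC1(WT) replicates 1, 2 and 3) ended the call, as did RLE size factors (adjusted p = 0.107), no filter (adjusted p = 0.0584) and the covariate (-0.89, adjusted p = 0.1). None of the 3 was called in RNA2. The median of the list was -0.53 in RNA2, -0.45 in RNA3 and -0.59 in the joint fit. RUNX3 was not tested in RNA1 and did not pass in the joint fit (-0.59, adjusted p = 0.351).

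Of 30 mesenchymal matrix and surface genes, 26 were tested in RNA1, with 14 higher and 5 lower and a median log2FC of 0.26. None of 29 was called in RNA2 (median -0.10), 1 (CDH11) was higher and 1 (ACTA2) lower in RNA3 (median -0.25), and 6 were higher and 3 lower in the joint fit (median -0.10). CDH11, a cadherin of mesenchymal cells, rose from 71.2 ± 2.26 to 111 ± 2.82 CPM in RNA1 (mean ± SD, n = 3) and had a log2FC of 0.61 (SE 0.09, adjusted p = 2.27e-06) in the joint fit. ACTA2, smooth muscle actin, fell from 19.2 ± 0.941 to 7.35 ± 0.373 CPM in RNA1 (mean ± SD, n = 3) and had a log2FC of -1.03 (SE 0.13, adjusted p = 2.60e-07) in the joint fit. The RNA3 call of CDH11 was lost without Puro replicate 1 or 3 or ABCC1(WT) replicate 2 or 3, with no filter and with the covariate (0.30, adjusted p = 0.787). That of ACTA2 was lost without each library but Puro replicate 1 (Puro replicates 2 and 3, ABCC1(WT) replicates 1, 2 and 3), with DESeq2 and with the covariate (-1.08, adjusted p = 0.228). In the list of 15 genes around CD44 and hyaluronan, 9 were tested in RNA1, 1 higher and 4 lower (median -0.11). In RNA2, RNA3 and the joint fit 1 gene was lower and none higher (medians -0.49, -0.16 and -0.14), HMMR, a hyaluronan receptor that also binds the mitotic spindle. HMMR had log2FC of -0.58, -0.96 and -0.89 (SE 0.08, 0.19 and 0.18) in RNA1, RNA2 and RNA3, with adjusted p of 2.28e-04, 0.0181 and 4.92e-04, and the RNA2 call was lost without Puro replicate 3 or ABCC1(WT) replicate 2 and with the covariate (-1.08, adjusted p = 0.285). HYAL2, a hyaluronidase, was higher in RNA1 (0.38, adjusted p = 3.33e-03) and did not pass in the joint fit (0.29, adjusted p = 0.0639). The covariate ended its RNA1 call (0.31, adjusted p = 0.274), and the joint fit called it in 5 of the 18 fits that left out 1 library (without RNA2 Puro replicate 1 or 2, RNA2 ABCC1(WT) replicate 1 or 3, or RNA3 ABCC1(WT) replicate 1).

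The opposite state was read from 19 adrenergic transcription factors, of which 11 were lower and 1 higher in RNA1, with a median log2FC of -0.22. In RNA2 1 was lower (median 0.21), in RNA3 2 were lower (median -0.02), and in the joint fit 2 were higher and 2 lower (median -0.03). Over all genes tested, 19.7% were lower and 17.9% higher in RNA1, and 3.72% and 8.72% in the joint fit. INSM1, a zinc finger repressor of neuroendocrine cells, fell from 10.7 ± 0.965 to 1.67 ± 0.495 CPM in RNA1, from 9.90 ± 1.08 to 3.75 ± 0.122 CPM in RNA2 and from 21.3 ± 7.15 to 4.35 ± 0.897 CPM in RNA3 (mean ± SD, n = 3). The log2FC was -2.67, -1.46 and -2.30 (SE 0.15, 0.25 and 0.22), with adjusted p of 7.12e-07, 6.62e-03 and 5.33e-14. In RNA2 its call was lost without Puro replicate 3 or ABCC1(WT) replicate 2 and with the covariate (-1.50, adjusted p = 0.125).

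Of the marker lists for other cell types, that of fibroblasts separated the lines in RNA1. The 7 fibroblast markers summed to 33.6 to 34.8 CPM per kb in Puro and 48.7 to 49.3 CPM per kb in ABCC1(WT) libraries there, 5 of the 6 tested were higher, and COL1A2 was at 0 in all ABCC1(WT) libraries. In RNA2 the sums were 15.1 to 27.3 and 20.2 to 21.7, and in RNA3 20 to 23.9 and 18.9 to 19.6 CPM per kb, again without overlap but in the opposite direction, with ABCC1(WT) cells lower. The mean olfactory receptor level per gene was also lower in ABCC1(WT) cells of RNA3 (1.25 against 1.56 CPM per kb). Its part in these sums of 7 genes was not tested. The part of fibroblasts in the RNA1 differences was not tested either. Of the 7, 5 also stand in the matrix and surface list (COL1A1, COL1A2, COL3A1, PDGFRA and PDGFRB). Endothelial, leukocyte and Schwann cell markers summed to at most 1.86 CPM per kb in RNA1, with CDH5, TEK, CDH19 and FOXD3 among those at 0 in Puro and CD3E and FOXD3 at 0 in ABCC1(WT) libraries. In RNA2 and RNA3 they summed to 1.18 to 14.9 CPM per kb and every marker was detected, and the sums of endothelial and of leukocyte markers were lower in ABCC1(WT) than in Puro cells without overlap, as those of the olfactory receptor genes were. In bulk RNA, fewer cells of a type and less RNA per cell cannot be told apart.

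After the mean of each experiment was subtracted, members varied together over the 18 libraries to different degrees. PRRX1 and TWIST1 had a Pearson r of 0.78 and FOSL2 and VIM one of 0.70, while SNAI2 had -0.53 with TWIST1 and -0.38 with PRRX1. These libraries share the contrast of the lines and the background level, and the values describe them without a test. Among 13633 genes with at least 1 CPM in each experiment, the gene most like each member called in RNA1 was MAFF for SNAI2 (r = 0.94), ASPM for PRRX1 (0.97), CCNH for TWIST1 (0.92), PSME3 for FOSL2 (0.97), PTPRE for WWTR1 (0.87) and CFAP97 for CD44 (0.84).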

How the data were processed

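RNA was sequenced from 18 libraries, 3 per line in each of 3 experiments. The authors deposited raw counts per gene, which per the labels were made with bcl2fastq 2.18, STAR 2.7.3a and featureCounts (Subread 2.0.0). Per the file headers, counting ignored strand and used GRCh37 genes with vector sequences added, and the files also list 92 spike-in controls. Spike-ins were left out of library sizes and tests. The 6 vector sequences were kept in library sizes and scaling, and were left out before p-values were adjusted. Their share of assigned read pairs in RNA1 was 0.36 to 0.43% in Puro and 1.30 to 1.32% in ABCC1(WT) libraries. In RNA2 and RNA3 it was 0.35 to 1.21%. Groups came from sample titles.

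Lines were compared within each experiment with edgeR 4.0.16 (R 4.3.3): TMM scaling, filterByExpr at a minimum count of 10, and the quasi-likelihood test, adjusted over all genes tested by Benjamini-Hochberg, called at an adjusted p of at most 0.05. The joint fit had experiment and line as terms, and an F test of their interaction compared experiments. log2FC is ABCC1(WT) over Puro. Fits set TMM factors on the genes and vector sequences that passed the filter, and CPM values on all of them within an experiment. A log2FC can therefore differ slightly from the ratio of CPM. Exact permutation tests used log2(CPM + 0.1). Scripts were tested on simulated data. Alternatives were DESeq2 1.42.0, RLE scaling, other filters, a replicate block, the olfactory receptor covariate and leaving out each library.

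Named from each list were the 2 genes with the smallest p for line in the joint fit and every gene called in the same direction in all 3 experiments, and for each member called, its most correlated gene. Items that this rule or the marker lists name but the text does not are not reported here. Members and lists were chosen with earlier results of these data known. Replicate libraries differed by more than counting noise (chi-square per degree of freedom 1.53 to 26.1).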

Additional observations from a re-analysis of the deposited data

How the results depend on the processing

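SNAI2 was higher and called in all 12 alternative fits of RNA1 (log2FC 0.89 to 0.96) and all 24 of the joint fit. The number of genes called moved more. In RNA1 it was 1407, with 1 member, with the olfactory receptor covariate. In RNA2 it was 2556 with DESeq2, 1086 with RLE size factors, 1402 with no filter and 12 with the covariate. In RNA3 it was 1561 with DESeq2, 1725 with at least 10 counts in every library and 109 with the covariate. In the joint fit the members called were 3 with DESeq2, beside 7441 of 46225 genes, 4 with at least 10 counts in every library, beside 5077 of only 14773 genes tested, and 2 with the covariate, beside 1822 of 46225 genes. That count filter left 363 genes whose effect differed between experiments. With RLE the median log2FC of all genes in RNA2 was -0.08 in place of -0.19.

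Leaving out 1 library at a time gave 5 to 1359 genes in RNA2 and 394 to 2761 in RNA3, with 0 to 1 members called in RNA3 and 1 to 2 in the joint fit, where 4694 to 7045 genes were called and the fit with 2 members (without RNA3 Puro replicate 2) had the most genes. RNA2 had 300 genes without Puro replicate 1, 219 without Puro replicate 2, 5 without Puro replicate 3, 207 without ABCC1(WT) replicate 1, 24 without replicate 2 and 1359 without replicate 3. RNA3 had 470, 2761 and 399 without Puro replicates 1, 2 and 3, and 2047, 405 and 394 without ABCC1(WT) replicates 1, 2 and 3.

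The mean correlation of the deviations of same-numbered libraries was -0.05, -0.06 and 0.04 in RNA1, RNA2 and RNA3. For differently numbered libraries it was 0.025, 0.032 and -0.021. Values this near 0 gave no sign of pairing by number but cannot exclude it. The replicate block gave 5356, 709, 1885 and 4861 genes in RNA1, RNA2, RNA3 and the joint fit and 389 for the difference between experiments, and no call of a member changed.

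Directions that turned were all of log2FC not called. With the covariate they were RUNX1 (-0.012) and VIM (0.00781) in RNA1, YAP1 in RNA2 (0.59), WWTR1 (0.19), FOSL2 (-0.39), RUNX1 (0.29) and CD44 (-0.061) in RNA3, and FOSL2 (-0.083), RUNX1 (0.079) and RUNX3 (0.42) in the joint fit. With no filter VIM in RNA1 was 0.00795. With DESeq2 and with RLE, WWTR1 (0.049 in both) and CD44 (0.032 in both) in RNA2, VIM in RNA3 (0.015 in both) and YAP1 in the joint fit (-0.022 and -0.049) turned. With at least 10 counts in every library FOSL2 (-0.013) and CD44 (-0.0072) did so in the joint fit. Leaving out libraries gave ranges that crossed 0 for VIM (-0.041 to 0.014) in RNA1, WWTR1 (-0.40 to 0.16), TWIST1 (-0.26 to 0.010) and CD44 (-0.22 to 0.043) in RNA2, PRRX1 (-0.20 to 0.065), WWTR1 (-0.18 to 0.17), TWIST1 (-0.22 to 0.033) and VIM (-0.14 to 0.21) in RNA3, and YAP1 (-0.070 to 0.27) in the joint fit. The cause was not tested. Among levels, FOSL2 in RNA1 Puro cells (10.2 CPM per kb) and CD44 in RNA2 ABCC1(WT) cells (1.47 CPM per kb) moved by more than 1 SD, both with RLE. FOSL1, YAP1 and RUNX1 had 2 to 35 counts per library in RNA1, which limits the precision of their values there.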
